A study of Mus musculus with 12 samples.

Results

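The messenger RNAs of the cytosolic ribosomal proteins were followed across the 12 libraries. Members were taken by symbol: every gene named Rpl or Rps plus a digit, with Rplp0, Rplp1, Rplp2 and Rpsa, and without the 10 listed symbols of the Rps6k kinases. This gave 91 of the 23420 genes listed, made up of 31 proteins of the small subunit, 43 of the large subunit, 3 of the stalk, 8 paralogs, 5 pseudogenes and Rps19bp1, a partner of Rps19 that is not part of the ribosome. The first 3 classes, 77 genes, are called core here. Of the 91 members, 86 passed the filter on low counts and were tested among 12759 genes.

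There were 4 groups of 3 libraries: fresh wild type, fresh knockout, stimulated wild type and stimulated knockout. All animals were C57BL/6 mice aged 6 to 8 weeks with the OT-I receptor, a transgenic T cell receptor for an ovalbumin peptide. By their labels, knockout animals lacked Otub1, a deubiquitinase gene, through CD4-Cre, a recombinase active in developing T cells. Another tag of the same samples reads OTUB1-DKO. The fresh groups are labelled untreated. The stimulated groups were cultured for 24 h on plates coated with antibody to CD3 in the presence of antibody to CD28 (each 1 µg/ml), which mimic antigen and costimulation. Stimulation and culture cannot be told apart. The series text names naive splenic CD8 T cells, whereas a cell type tag names splenic DCs. Whether replicates came from separate animals is not in the labels, though Y-linked reads, given below, differed between libraries within 3 of the 4 groups. The p-values therefore measure a spread between libraries that may be technical in part.

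Each ribosome carries 1 copy of most of these proteins, so their mRNAs are made in large and similar amounts. In vertebrates nearly all of these mRNAs begin with a C and a run of pyrimidines, the 5′ terminal oligopyrimidine tract, through which the kinase mTOR and the protein LARP1 control their translation and stability. A T cell leaving the naive state grows and builds ribosomes before it divides, and much of that rise in ribosomal protein synthesis is known to occur by loading existing mRNAs onto ribosomes.

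The start regions below are of members whose levels are described further on, with the tract marked where one was found near the start. In Rps7, Rps16 and Rpl7l1 none began within 5 bases of the start. Each is 30 bases of RefSeq sequence (GRCm38.p6), 15 before the annotated start and 15 from it, on the gene's strand. Capitals mark a C followed by at least 4 bases that are each C or T, where the C lies within 5 bases of the start. The genes were chosen after their values were seen: Rps6, Rpl12, Rps7 and Rps16 as core members that fell on stimulation, Rpl14 and Rpl7a as core members that rose, and Rps27l and Rpl7l1 as paralogs that rose.
Rps6, chr4:86857353-86857382, minus strand: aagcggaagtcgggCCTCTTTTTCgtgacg
Rpl12, chr2:32961697-32961726, plus strand: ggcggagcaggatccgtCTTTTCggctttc
Rps7, chr12:28635939-28635968, minus strand: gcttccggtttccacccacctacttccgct
Rps16, chr7:28350674-28350703, plus strand: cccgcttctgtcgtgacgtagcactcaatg
Rpl14, chr9:120571502-120571531, plus strand: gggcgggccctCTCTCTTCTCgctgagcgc
Rpl7a, chr2:26910792-26910821, plus strand: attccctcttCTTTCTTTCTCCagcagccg
Rps27l, chr9:66946071-66946100, plus strand: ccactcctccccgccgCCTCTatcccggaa
Rpl7l1, chr17:46782642-46782671, minus strand: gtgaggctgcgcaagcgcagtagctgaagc

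Such a tract, searched on the gene's strand only and at any listed start, stood near the start of 21.2% of the 27025 genes in the RefSeq promoter table. The table held 57 of the 77 core members, and 27 of these (47.4%) had such a tract. With the other core members missing from it, this share is not read as that of the class. The class was therefore read from the principal transcripts of GENCODE M21, which held all 77. There, the first base was a C followed by at least 4 pyrimidines in 11 core members (14.3%), against 2.23% of 21842 protein-coding genes, and in 3.85% of the 78 mitochondrial ribosomal proteins. A tract that began within the first 10 bases was found in 28 core members (36.4%), against 16.1% of protein-coding genes and 23.1% of the mitochondrial list. Of the 7 paralogs with a coding transcript, 1 had it. Annotated starts can lie some bases from the start used in these cells, so a gene with no tract in these windows may still carry one.

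Depth ranged from 15064488 to 25920035 gene counts per library. Otub1 was lower in the knockout than in the wild type of the same state (log2 fold change −1.19 in fresh and −2.66 in stimulated cells, edgeR adjusted p = 0.000559 and 1.35e-07). By library it was at 72.6, 70.8 and 45.1 CPM in fresh wild type and 25.4, 28.8 and 28.6 CPM in fresh knockout, so reads of the gene remained there. In 3 libraries Y-linked reads were present: replicate 2 of fresh knockout (9563 counts) and replicate 3 of both fresh wild type (5958) and stimulated knockout (6590). The other libraries held 2 to 10 such counts, so each of these 3 groups held material of more than 1 animal. The 5 CD8 T cell markers in the files summed to 4413 to 4762 CPM in fresh and 1374 to 1793 CPM in stimulated libraries. CPM is a gene's count scaled to the size of its library, with TMM factors. The 14 dendritic cell markers summed to 1182 to 1800 CPM in fresh and 105 to 125 CPM in stimulated libraries, and none was at 0 in any group. Stimulated wild-type replicate 1 stood apart from the other 2 libraries of its group in the values of ribosomal protein genes, and results that rest on it are given with and without it.

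The core mRNAs were abundant and of similar level, with 4 exceptions. The 73 core members with more than 1000 counts over all libraries lay between 461 CPM (Rpl38) and 3989 CPM (Rplp0) in fresh wild type, with a median of 1434 CPM. Rpsa, a small-subunit protein also known as the laminin receptor precursor, took the most counts over all libraries. Per kilobase of coding sequence the order differed. Rpl41, whose protein is among the shortest known with 75 coding bases, led with 15735 CPM per coding kilobase in fresh wild type, followed by the stalk protein gene Rplp1 with 7745 and Rps29 with 6934.

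Rpl26, Rpl30, Rps27 and Rpl34, all core genes, were nearly without counts. Rpl26 had 0 counts in every library, which allows up to 0.116 to 0.199 CPM per library, for counting error only. Rpl30 had 27 counts over all 12 libraries, Rps27 had 594 and Rpl34 had 663. These genes have many processed pseudogenes, and reads that match several places can be lost in counting. Of the 50-base windows in the principal transcript, 98.6% in Rps27, 76.4% in Rpl30, 71.3% in Rpl26 and 50.6% in Rpl34 also occur in a transcript of another gene. The median over the 77 core members was 61.2%. Other core members with high shares were well counted, such as Rpl35 (95.1%, 176823 counts) and Rpl5 (93.8%, 503803 counts). The cause of the low counts was not tested, and the values of these 4 genes are not taken as levels of their mRNAs. The other members that did not pass the filter were the paralogs Rpl3l (8 counts in all), expressed mainly in muscle, and Rpl10l (0 counts), expressed mainly in testis, and the pseudogene Rpl34-ps1 (1 count).

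In stimulated against fresh wild-type cells most ribosomal protein mRNAs fell as a share of the library. A few members rose, with the largest log2 fold change in the paralog Rps27l. Of the 86 tested members, 59 were called lower and 9 higher, where called means an edgeR adjusted p under 0.05. The background of this comparison is high: 82.3% of all tested genes were called, 41.4% lower and 40.8% higher. In 63 members all stimulated libraries lay below all fresh ones and in 9 above, against 42.3% and 41.8% of all tested genes. The median log2 fold change was −0.30 over the members and −0.027 over all tested genes. By class, 26 of 31 small-subunit members fell and 1 rose (median −0.44), 27 of 41 large-subunit members fell and 4 rose (median −0.28), and all 3 stalk members fell. The knockout showed 54 lower and 14 higher, with a median of −0.25, where 83.9% of all tested genes were called, 42.2% lower and 41.7% higher. Without stimulated wild-type replicate 1 the wild-type counts were 52 lower and 12 higher, with a median of −0.23. In that fit 80.1% of all genes were called, 5205 lower and 5163 higher, with a median of −0.032. Both genotypes shared 52 members called lower, which is 52 of 59 in wild type and 52 of 54 in knockout. They shared 9 called higher, and no member was called in opposite directions. The overlap over all tested genes was not computed.

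Summed over all members, the counts made up 11.2, 11.0 and 11.9% of gene counts in fresh wild type and 8.40, 9.57 and 9.42% in stimulated wild type. In the knockout they made up 10.3, 9.72 and 10.7% in fresh and 8.43, 8.57 and 8.47% in stimulated libraries. Every stimulated library lay below every fresh library. The group means were 11.4 ± 0.470% and 9.13 ± 0.635% in wild type, and 10.2 ± 0.480% and 8.49 ± 0.0749% in knockout (SD, n = 3). The ratio of summed small-subunit to large-subunit counts, with the stalk counted in the large subunit, was 0.795, 0.795 and 0.804 in fresh wild type. In stimulated wild type it was 0.734, 0.752 and 0.751. In the knockout it was 0.783, 0.784 and 0.778 in fresh and 0.732, 0.729 and 0.731 in stimulated libraries. It was thus lower in each stimulated library than in any fresh library. These sums are given without a test, since the members were chosen with earlier results of these data known.

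**Figure D1:**
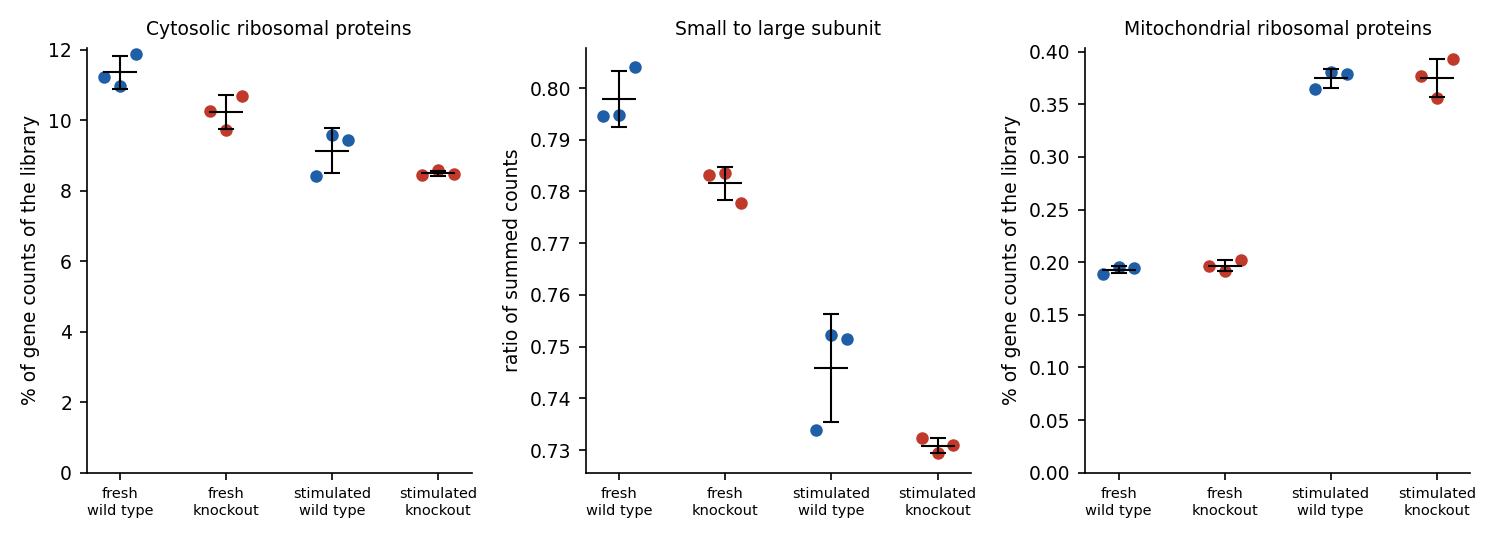
Points are single libraries, wild type in blue and knockout in red, and bars are the mean and SD of 3 libraries. The left and right panels give the share of gene counts (%) taken by cytosolic and by mitochondrial ribosomal proteins. The middle panel gives the ratio of small-subunit to large-subunit counts, the latter with the stalk, on an axis that does not start at 0. The cytosolic share lay between 9.72% and 11.9% in fresh and between 8.40% and 9.57% in stimulated libraries, while the mitochondrial share was higher after stimulation.

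These values are shares of a library. They do not give the amount of mRNA in a cell, and in such bulk samples fewer cells of a type and less RNA per cell cannot be told apart. The summed markers of all 7 cell types examined (CD8 T, CD4 T, dendritic, B, NK, myeloid and erythroid cells) were also lower in every stimulated library than in any fresh one, and their part in the result was not tested. With upper-quartile scaling the median of all tested genes moved to −0.15 in wild type and −0.14 in knockout. That of the members moved to −0.43 and −0.37. In wild type 66 members were then called lower and 5 higher, where 82.5% of all genes were called, 5867 lower and 4663 higher. Under each scaling tried the members' median lay below that of all genes.

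Among small-subunit proteins, Rps16 had the largest called fall in wild type after Rps27, whose counts are too few to be read as a level. Rps16, a protein near the decoding site, was at 1997, 1879 and 2028 CPM in fresh and 927, 1146 and 1122 CPM in stimulated wild type (log2 fold change −0.89 with an SE of 0.077, edgeR adjusted p = 2.54e-08). Rps7, which also binds the p53 regulator MDM2, was at 2104, 2009.6 and 2275 CPM in fresh and 1015, 1253 and 1219 CPM in stimulated wild type (log2 fold change −0.87 with an SE of 0.078, edgeR adjusted p = 3.36e-08). In both genes the 2 groups were far apart, and replicate 1 was the lowest of the 3 stimulated wild-type libraries. Rps21 fell by 0.81 on the log2 scale in wild type and by 0.88 in knockout, where it was among the 5 lowest together with Rps27, Rps7, Rpl17 and Rps16.

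Rps6, the substrate of the S6 kinases downstream of mTOR, was at 2725, 2604 and 2851 CPM in fresh and 1866, 2023 and 2029 CPM in stimulated wild type (log2 fold change −0.47 with an SE of 0.063, edgeR adjusted p = 4.94e-06). Its groups did not overlap. Rps14, Rps19 and Rps24 also fell in wild type, with log2 fold changes of −0.68, −0.72 and −0.58. Rps3, at the mRNA entry channel and also a partner of NF-kappaB, fell by 0.44. Smaller falls were found for Rps4x (−0.21), Rps27a (−0.19), which encodes a fusion of ubiquitin and a ribosomal protein, and Rpsa (−0.19). In knockout, Rps4x and Rps27a were not called (edgeR adjusted p = 0.326 and 0.247). Rps25, needed by viral internal ribosome entry sites, was not called in either genotype, with log2 fold changes of −0.026 in wild type and 0.10 in knockout.

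Rps2, a target of arginine methylation by PRMT3, was the only small-subunit member called higher in wild type. It was at 1711, 1714 and 1772 CPM in fresh and 2057, 2448 and 2317 CPM in stimulated wild type, and at 1583, 1536 and 1697 CPM in fresh and 2328, 2298 and 2446 CPM in stimulated knockout. Every stimulated library lay above every fresh one in both genotypes (wild type, log2 fold change 0.39 with an SE of 0.067, edgeR adjusted p = 5.26e-05; knockout, log2 fold change 0.55). Transcripts of 71 other genes share 50-base windows with Rps2, so its counts may be split with near-identical copies. Such windows were also shared with many genes by Rpl17 (51), Rpl7a (123) and Rpl29 (84), so the same limit applies to their counts. Rps16 shared windows with 89 genes, of which 61 are listed genes outside the members, such as Usp9x. These need not be copies of Rps16, and the effect on its counts was not tested. In knockout Rps12 and Rps26 were called higher besides Rps2, with log2 fold changes of 0.19 and 0.12. Neither of these additional calls held with upper-quartile scaling.

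In the large subunit, Rpl12 and Rpl17 fell the most. Rpl12, at the base of the stalk, was at 2350.0, 2305 and 2527 CPM in fresh and 1229, 1434 and 1430.1 CPM in stimulated wild type (log2 fold change −0.81 with an SE of 0.067, edgeR adjusted p = 1.26e-08). Rpl17, which lines the exit of the peptide tunnel, was at 1745, 1683 and 1867 CPM in fresh and 902, 1067 and 1039 CPM in stimulated wild type (log2 fold change −0.82 with an SE of 0.067, edgeR adjusted p = 1.34e-08). No stimulated library of wild type came near a fresh one in either gene. Rpl5 and Rpl11, which with 5S rRNA bind MDM2, fell by 0.45 and 0.30 on the log2 scale, and Rpl13a, known for a role in silencing inflammatory mRNAs, fell by 0.54. Rpl38, linked to translation of Hox mRNAs, and Rpl10a, used as a tag for cell-type ribosome capture, had log2 fold changes of −0.28 and −0.18, both called.

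The large-subunit members called higher in wild type were Rpl14, Rpl24, Rpl7a and Rpl29, all by less than the called paralogs. With upper-quartile scaling none of these genes was called in wild type, so their rises depend on the scaling. Rpl14 was at 1015, 975 and 1017 CPM in fresh and 1111, 1178 and 1191 CPM in stimulated wild type (log2 fold change 0.21 with an SE of 0.053, edgeR adjusted p = 0.00185), and at 905, 855 and 909.7 CPM in fresh and 1131, 1222 and 1140.0 CPM in stimulated knockout. Its groups did not overlap in either genotype. In wild type the log2 fold change was 0.21 for Rpl24, 0.17 for Rpl7a and 0.13 for Rpl29. In knockout Rpl7 and Rpl41 were also called higher, by 0.24 and 0.19. With upper-quartile scaling Rpl7, Rpl41 and Rpl29 were not called in knockout. The stalk proteins recruit the GTPase factors of translation. Rplp0 was at 3941, 3889 and 4138 CPM in fresh and 3038, 3530.1 and 3464 CPM in stimulated wild type (log2 fold change −0.25 with an SE of 0.067, edgeR adjusted p = 0.00263). Rplp1 fell by 0.54 and Rplp2 fell by 0.47 on the log2 scale.

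**Figure D2:**
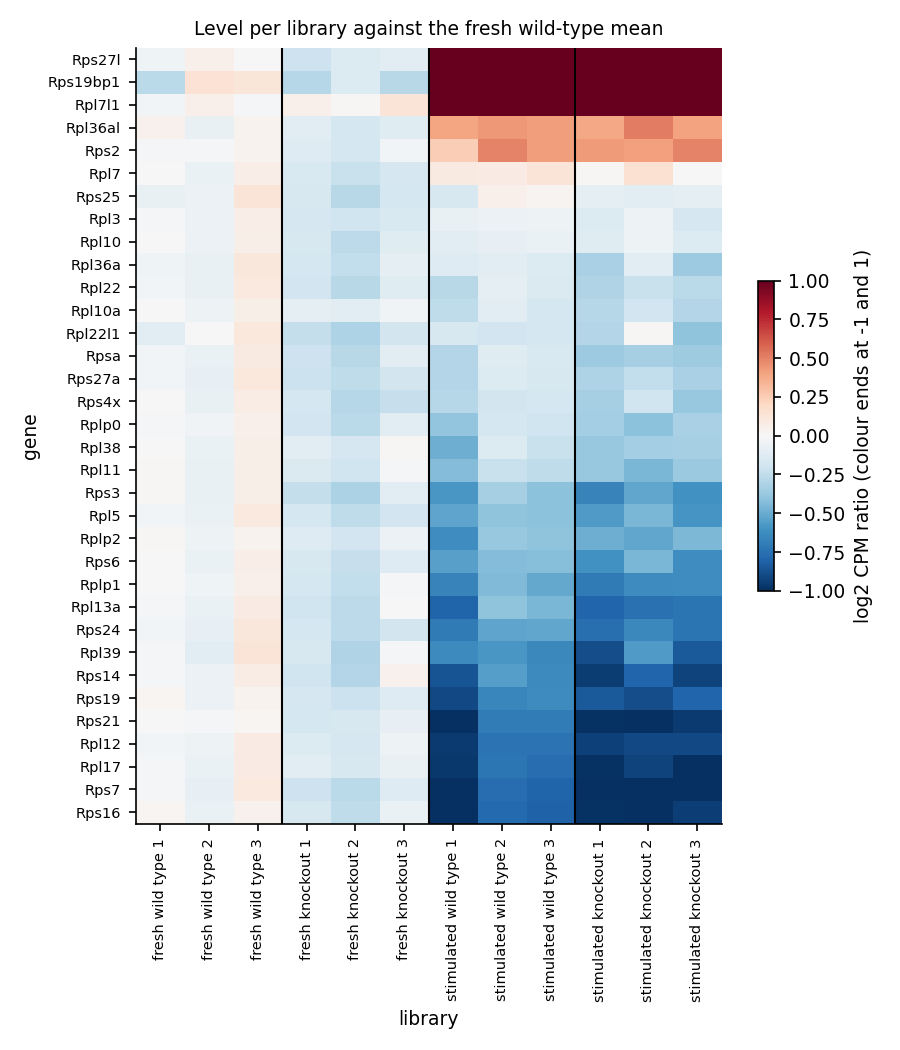
Rows are the members with described roles, the paralog pairs and the members with the highest and lowest called changes, where they had more than 1000 counts, sorted by their fold change on stimulation in wild type; columns are the 12 libraries. Colour is the log2 ratio of CPM to the fresh wild-type mean, with red for higher and blue for lower and with colours capped at −1 and 1. Most rows are blue in the 6 stimulated libraries, a few at the top are red, and stimulated wild-type replicate 1 is bluer than the other 2 of its group in many rows.

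Of the 6 paralogs tested, 3 were called higher in wild type and none lower. With 40.8% of all tested genes called higher and 41.4% lower, this count is not read as a trait of paralogs. Rps27l, a p53 target gene, was at 21.38, 22.77 and 21.97 CPM in fresh and 90.82, 104.67 and 108.02 CPM in stimulated wild type (log2 fold change 2.20 with an SE of 0.071, edgeR adjusted p = 1.56e-13). In knockout it was at 19.11, 20.01 and 20.47 CPM in fresh libraries and between 99.85 and 107.70 CPM in the 3 stimulated ones (log2 fold change 2.37 with an SE of 0.071, edgeR adjusted p = 5.38e-14). Every stimulated library was far above every fresh one. Its partner gene Rps27 cannot serve as a comparison, for the reason given above.

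Rpl7l1, a Rpl7-like protein of the nucleolus that binds precursors of the large subunit, was at 63.4, 66.8 and 63.7 CPM in fresh and 188, 195 and 198 CPM in stimulated wild type (log2 fold change 1.58 with an SE of 0.053, edgeR adjusted p = 2.57e-13). Rpl7 itself was at 1862, 1772 and 1949 CPM in fresh and 1981, 1969 and 2037 CPM in stimulated wild type and was not called there (log2 fold change 0.10, edgeR adjusted p = 0.123). The rise of Rpl7l1 was the third largest of all members, and its groups were far apart. Rps19bp1 was at 7.77, 10.32 and 10.19 CPM in fresh and 26.95, 29.38 and 29.97 CPM in stimulated wild type (log2 fold change 1.61 with an SE of 0.12, edgeR adjusted p = 5.41e-09), while Rps19 itself fell.

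Rpl36a and Rpl36al encode nearly the same protein. Rpl36al was at 212, 196 and 212 CPM in fresh and 271, 278 and 277 CPM in stimulated wild type (log2 fold change 0.41 with an SE of 0.046, edgeR adjusted p = 4.89e-07), and Rpl36a, at 519, 507 and 577 and 489, 495 and 485 CPM, was not called (edgeR adjusted p = 0.0936). Rpl36al thus went from 27.9 ± 1.11% to 36.0 ± 0.333% of the counts of the pair in wild type, and from 28.4 ± 0.777% to 38.6 ± 1.17% in knockout (SD, n = 3). In the Rpl22 pair the shares of fresh and stimulated wild type were close. Rpl22 is required for development of T cells with the alpha-beta receptor, and Rpl22l1 is its paralog, which took 27.9 ± 1.10% of the pair in fresh and 27.7 ± 1.54% in stimulated wild type (SD, n = 3). Rpl22 was called lower in wild type (log2 fold change −0.17), and Rpl22l1 had −0.18 and was not called (edgeR adjusted p = 0.0531). Rps4y2, the files' name for the pseudogene Rps4l, had 307 counts in all and was not called in any comparison. In the other pairs Rpl3 and Rpl10 were not called in either genotype, while Rpl39 fell by 0.62 in wild type and fell by 0.60 in knockout.

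**Figure D3:**
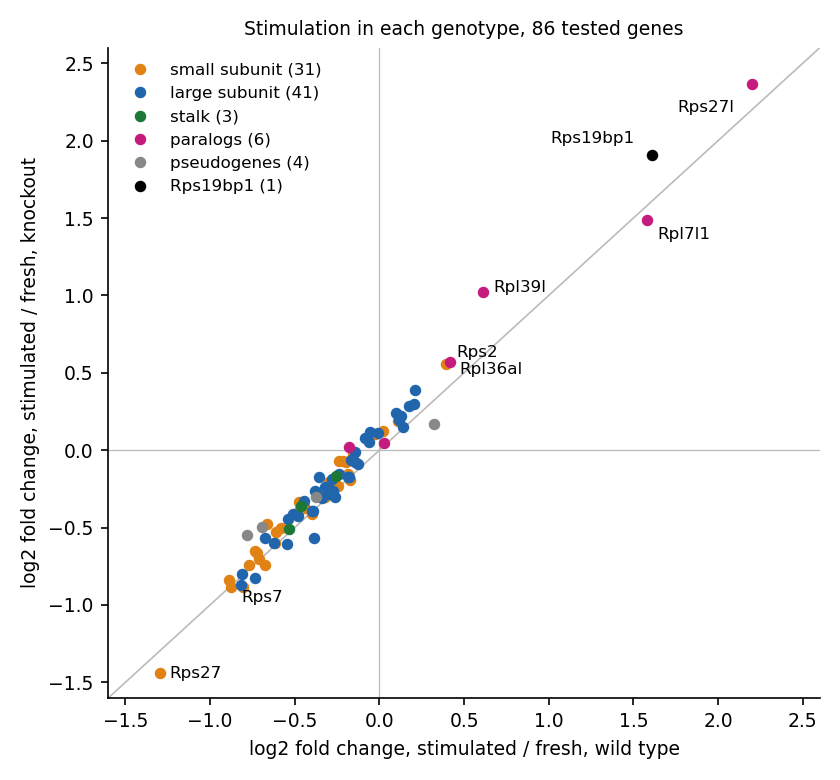
Each point is 1 of the 86 tested members, with its log2 fold change on stimulation in wild type on the horizontal axis and in knockout on the vertical axis, coloured by class; the grey diagonal marks equal values. The points lie along the diagonal, with Rps27l, Rps19bp1 and Rpl7l1 at the upper right and Rps27 at the lower left.

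Members kept a similar order of stimulation effects in both genotypes. Across the 86 members the log2 fold changes of wild type and knockout had a Pearson r of 0.99 and a Spearman rho of 0.98. The values of each genotype come from different libraries, genes are not independent replicates, and no test is attached. The same correlation over all tested genes was not computed, so it is not read as particular to the members. Across the 75 tested core members the fold change in wild type had a Pearson r of 0.31 with coding length, 0.16 with the share of 50-base windows found in other genes and −0.036 with the fresh level. Core members were also split by a GENCODE tract that begins in the first 10 bases. Of the 26 with it, 20 fell and 2 rose (median −0.39), and of the 49 without it, 36 fell and 3 rose (median −0.30).

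Lists related to the ribosome but outside the symbol rule moved in different directions in wild type, where 40.8% of all tested genes were called higher and 41.4% lower. Of the mitochondrial ribosomal proteins, 74 of 76 tested rose and none fell (median 0.97), led by Mrps6 with 2.52. Their summed share went from 0.193 ± 0.00341% to 0.375 ± 0.00902% of gene counts (SD, n = 3). Of 24 chaperones and assembly factors of ribosomes 23 rose (median 1.23), led by Pno1 (2.21), which acts in the last steps of small-subunit assembly, and Ncl (2.13), which encodes nucleolin. Fau and Gnb2l1, core proteins whose symbols the rule does not cover, had log2 fold changes of −0.54 and −0.26, both called lower. Among 19 other mRNAs known to carry the tract 11 rose and 6 fell, from Npm1 at 1.87 to Hnrnpa1 at −1.13. Hnrnpa1 had means of only 8.84 CPM in fresh and 4.07 CPM in stimulated wild type. Whether these low values give the level of its mRNA was not tested. Among 15 genes that act on tract mRNAs 9 rose and 3 fell. Eif4ebp1, an inhibitor of cap-dependent translation that mTOR inactivates, rose by 4.75, Eif4e by 1.91 and Larp1 by 1.56.

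**Figure D4:**
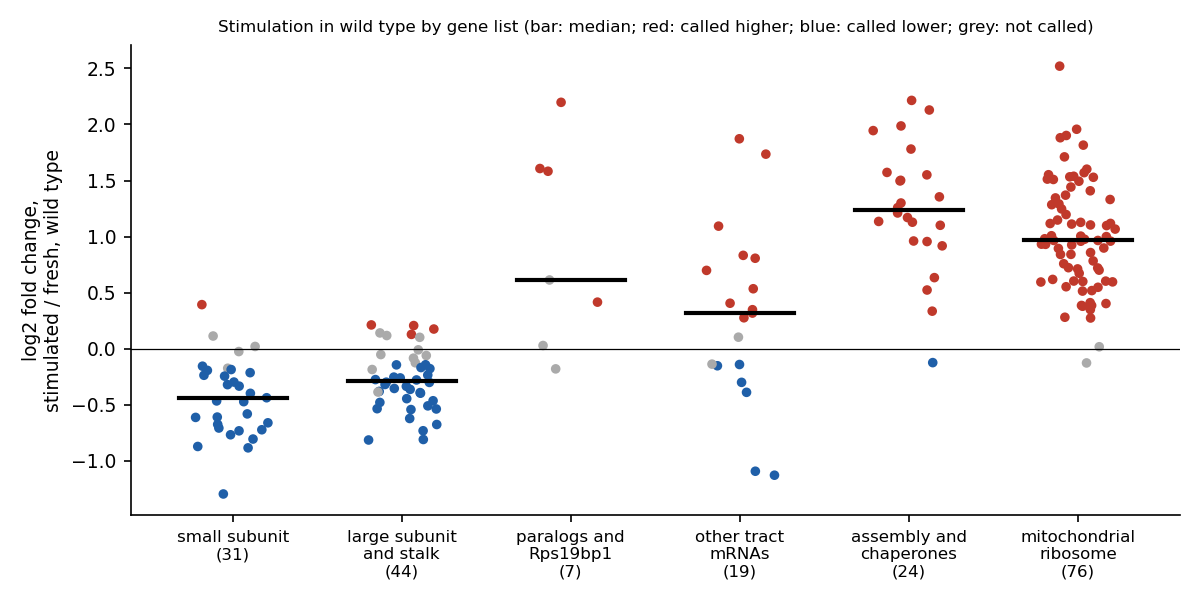
Each point is a tested gene, with its log2 fold change on stimulation in wild type on the vertical axis, grouped by list, and the black bar is the median of the list. Red points were called higher, blue lower and grey not called. The 31 small-subunit genes and the 44 of the large subunit and stalk lie mostly below 0, and the 76 mitochondrial and 24 assembly genes mostly above it.

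In fresh cells most members had slightly lower values in the knockout, and none was called by edgeR. At an unadjusted p under 0.05 there were 47 lower and none higher among the 86, against 6.57% lower and 7.56% higher of all tested genes. In 59 members (68.6%) all 3 knockout libraries lay below all 3 wild-type libraries, and in 3 all lay above, against 9.42% and 10.6% of all tested genes. Of all tested genes edgeR called 1.20%, 0.219% lower and 0.980% higher. DESeq2 called 20 members lower and none higher (0.949% and 1.98% of its tested genes), and limma-voom 3 lower and none higher (0.384% and 1.18%). The median log2 fold change was −0.17, 11.1% lower, against −0.00018 over all tested genes. All 73 abundant core members were below 0, between −0.24 and −0.061. Members can move together in a library and are not independent replicates, so all these counts rest on 3 libraries against 3.

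Rps4x, the X-linked form of a small-subunit protein, was called lower by both DESeq2 and limma-voom. It was at 2623, 2503 and 2776 CPM in fresh wild type and 2326, 2159 and 2249 CPM in fresh knockout (log2 fold change −0.23 with an SE of 0.064, edgeR adjusted p = 0.104). The groups did not overlap, and fresh wild-type replicate 3 was the highest library. By class, the median was −0.20 over the small subunit, −0.16 over the large subunit and −0.14 over the stalk.

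The members with described roles lay in the same range. The lower end held Rps4x (−0.23), Rps3 (−0.22), Rps27a (−0.22), Rpl5, Rps24 and Rps25 (each −0.21), and the upper end Rpl38 (−0.089) and Rpl10a (−0.080). Rplp0 was at 3941, 3889 and 4138 CPM in wild type and 3495, 3314 and 3678 CPM in knockout (log2 fold change −0.19 with an SE of 0.067, edgeR adjusted p = 0.207). Its groups did not overlap, and it was not called. The 6 members above 0 were Rpl39l, Rpl34, Rps27, Rps19-ps3, Rpl7l1 and Rps4y2. Of these only Rpl7l1 had more than 1000 counts, at 63.4, 66.8 and 63.7 CPM in wild type and 66.8, 65.2 and 70.7 CPM in knockout, which overlapped.

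The summed share was lower in each fresh knockout library than in each fresh wild-type library, with means of 10.2 ± 0.480% and 11.4 ± 0.470%. The ratio of small to large subunit, the latter with the stalk, followed, at 0.782 ± 0.00328 against 0.798 ± 0.00541 (SD, n = 3). Depth differed between these groups as well, with means of 17389302 gene counts in fresh wild type and 20531781 in fresh knockout. The fresh wild-type libraries held 16570657, 20532761 and 15064488 gene counts and the fresh knockout libraries 19013482, 21953896 and 20627966, and the shallowest of the 6 had the highest share and the deepest the lowest. Those same 2 libraries, from different genotypes, were the fresh ones with Y-linked reads. The shallowest, fresh wild-type replicate 3, also had the lowest Otub1 level of its group. Leaving out the 3 Y-linked libraries took away the highest and the lowest share among the fresh libraries. The members' median was then −0.0996 on the log2 scale, down in size from −0.17. The part of depth and of the Y-linked libraries in the result was not tested beyond this. Dendritic cell markers summed to 1469 to 1800 CPM in fresh wild type and 1182 to 1759 CPM in fresh knockout.

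Mitochondrial ribosomal proteins had a median of 0.015 and none of 76 called by edgeR (3 higher and 1 lower at an unadjusted p under 0.05). The assembly list had a median of 0.011 over 24 genes. Among the other mRNAs known to carry the tract, 14 of 19 were lower at an unadjusted p under 0.05, with a median of −0.15. One of them, Nap1l1, a histone chaperone gene, was called lower, at 283, 291 and 299 CPM in wild type and 248, 245 and 241 CPM in knockout (log2 fold change −0.25 with an SE of 0.049, edgeR adjusted p = 0.023).

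**Figure D5:**
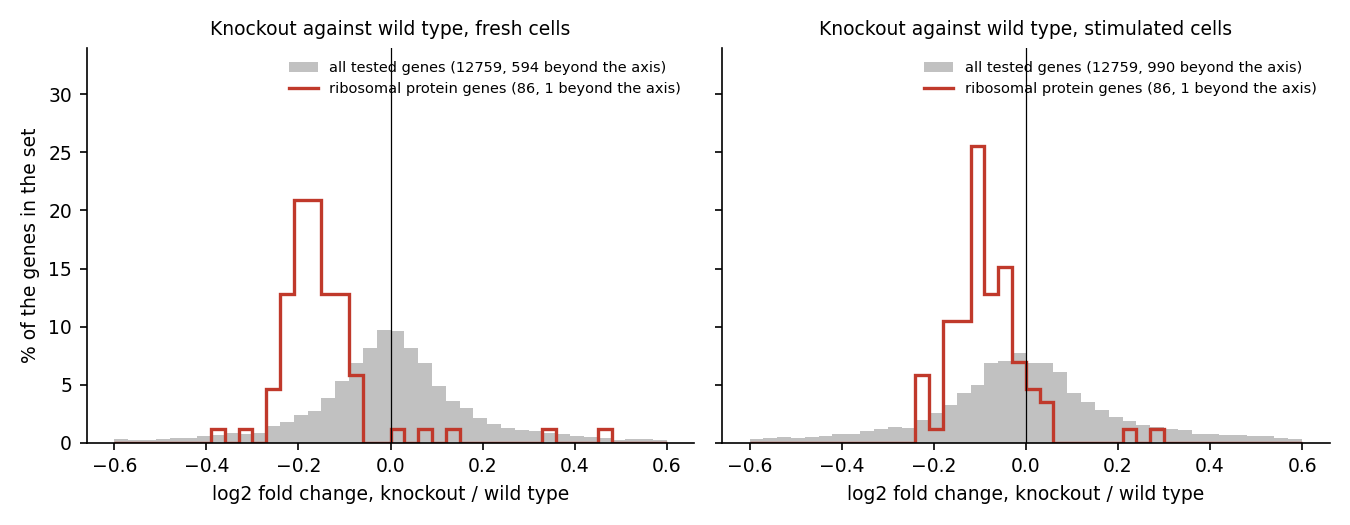
Share of genes (%) by log2 fold change of knockout over wild type, in bins of 0.03, for all 12759 tested genes (grey) and the 86 tested members (red line), in fresh cells on the left and stimulated cells on the right. Members sit left of 0 in fresh cells, with a median of −0.17, and closer to 0 in stimulated cells, with a median of −0.091.

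In stimulated cells the genotypes overlapped for nearly all members. Only 1 of 86 was called, Rpl39l, against 9.30% of all tested genes (5.08% higher, 4.22% lower), and 11 were lower at an unadjusted p under 0.05 (10.9% of all tested genes were lower at this limit). In 2 members all knockout libraries lay below all wild-type libraries and in 1 they lay above (13.1% and 14.3% of all tested genes). The median was −0.091, against −0.0048 over all tested genes. Rps21 had the lowest value, at 349, 441 and 441 CPM in wild type and 361, 329.8 and 369 CPM in knockout (log2 fold change −0.22 with an SE of 0.075, edgeR adjusted p = 0.0899). The knockout values there lay around that of wild-type replicate 1 and below those of replicates 2 and 3.

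Single libraries changed this count. Without replicate 1 of stimulated wild type Rpl39l was not called, and the median became −0.15, against −0.0028 over all genes. In that fit 13 members were called lower, where 10.1% of all genes were called, 511 lower and 796 higher. The 13 included Rpl13a, Rpl17, Rps7, Rps14, Rps19, Rps20 and Rps21. Without replicate 2 none was called, against 5.85% of all genes, and the median was −0.056. For Rps20 the wild-type libraries held 1222, 1552 and 1539 CPM and the knockout libraries 1267, 1195 and 1255 CPM, so that replicate 1 fell among the knockout libraries. Its Otub1 level was 85.7, 100.1 and 96.1 CPM in replicates 1, 2 and 3, against 16.2, 13.8 and 14.5 CPM in the knockout, so that this gene did not go against its label. DESeq2 called Rps7, Rps20 and Rps21 lower and Rpl39l higher (5.00% lower and 5.90% higher of its tested genes), and limma-voom called none (4.10% lower and 5.88% higher).

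Rpl39l, a paralog of the tunnel protein gene Rpl39 that is known from testis, was at 0.351, 0.289 and 0.665 CPM in stimulated wild type and 0.697, 1.05 and 2.19 CPM in stimulated knockout (log2 fold change 1.55 with an SE of 0.43, edgeR adjusted p = 0.0352). Knockout replicate 3 was the highest library, and the groups did not overlap, though the gene had 173 counts over all 12 libraries. In fresh cells it was at 0.243, 0.242 and 0.399 CPM in wild type and 0.571, 0.724 and 0.623 CPM in knockout, again without overlap, and was not called (edgeR adjusted p = 0.384). The call in stimulated cells was lost without knockout replicate 3 (log2 fold change 0.93, edgeR adjusted p = 0.195), without wild-type replicate 1 or 2 (edgeR adjusted p = 0.089 and 0.132), with only the groups compared, without the Y-linked libraries, and with limma-voom. Over its alternatives the adjusted p ran from 0.012 to 0.199. Rpl39 itself had a log2 fold change of −0.14 and was not called.

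The difference between the genotype effects of fresh and stimulated cells was tested as an interaction. No member was called by edgeR, DESeq2 or limma-voom, where edgeR called 2.26% of all genes (0.698% higher, 1.56% lower). At an unadjusted p under 0.05 in edgeR, 3 members were higher and none lower, against 7.60% higher and 8.75% lower of all tested genes. The median was 0.078, but it was 0.018 without stimulated wild-type replicate 1 and 0.0017 without the Y-linked libraries. A smaller genotype effect in stimulated cells was therefore not shown. Among the 73 abundant core members the median standard error of the genotype difference was 0.067 in each state.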

How the data were processed

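RNA-seq read counts of 12 mouse libraries in 4 groups of 3 were analysed. The authors deposited raw counts per gene with no normalization, in 1 table per library. Mapping and counting used mm10, TopHat, TopHat2 and HTSeq, with DESeq2 also named, per the submitters' processing notes. Their versions, the annotation and the strand setting were not given in the sources used here, and counts of antisense neighbours, overlapping genes and close copies are uncertain. The HTSeq summary lines (5.22% to 6.43% of a file's total; reads aligned to several places were 2.95% to 3.92% of it) were left out.

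Testing was done with edgeR 4.0.16 under R 4.3.3: filterByExpr by group, TMM factors (0.988 to 1.01), and 1 quasi-likelihood fit of all libraries by group (8 residual degrees of freedom). Tests were two-sided, and the threshold was an adjusted p of 0.05 (Benjamini-Hochberg) over all 12759 genes tested. The code was tested on simulated data. Levels are CPM with TMM scaling. Alternatives were other scalings, DESeq2 1.42.0, limma-voom (limma 3.58.1), no filter, only the groups compared, each library left out, and no libraries with over 1000 Y-linked counts. Permutation tests planned for the summed shares are not reported, since the members were chosen for description.

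The members, lists and rules were chosen with earlier results of these data known. Genes are named by a rule: Otub1, 18 members with described roles, the paralog pairs, the 5 highest and 5 lowest called members of each comparison, the 3 most abundant per coding kilobase, members that failed the filter, and up to 3 called genes per related list. Other named members were chosen after their values were seen, and some genes are not reported here. Coordinates, lengths and shared 50-base windows come from GENCODE M21 (GRCm38), and start sequences from RefSeq.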

Additional observations from a re-analysis of the deposited data

How the results depend on the processing

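No paired analysis was possible because replicate numbers here only name libraries in accession order, and the numbers in the labels run on across the groups instead of starting again in each. Among fresh cells, members called between genotypes numbered 0 with edgeR, 20 with DESeq2, 3 with limma-voom, and 0 to 3 with 1 library left out. There were 3 without stimulated wild-type replicate 1 (1.38% of all genes called) and 1 without stimulated knockout replicate 2 (1.58% of all genes called). Among stimulated cells the 1 call became 0 with only the groups compared, 0 without the libraries with Y-linked reads, 0 with limma-voom, 4 with DESeq2, and 0 to 13 with 1 library left out. Members called on stimulation ranged from 62 to 71 in wild type and from 59 to 71 in knockout, and the interaction stayed at 0. The interaction uses all 4 groups, so the setting with only the groups compared does not apply to it. No called member changed sign under any alternative. The genotype difference of the summed share was −0.89 percentage points, −0.63 without the libraries with Y-linked reads, and −1.07 to −0.759 with 1 library left out, and the stimulation difference was −2.10 to −1.79. The cause of these shifts was not tested. With 3 libraries a group, differences near 0.1 on the log2 scale lie within about 2 standard errors.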
